A study of Rattus norvegicus with 10 samples.

Results

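Astrocytes clear glutamate, buffer potassium and move water around synapses, and the messenger RNAs of 9 genes of that machinery were followed here in the hippocampus of rats 3 months after traumatic brain injury (TBI) or sham surgery. The genes were the glutamate transporters Slc1a2 and Slc1a3, glutamine synthetase Glul, the potassium channel Kcnj10, the water channel Aqp4, the gap junction connexins Gja1 and Gjb6, the folate enzyme Aldh1l1 and the dystrobrevin Dtna. They were chosen by name, and each was read from the rows of the count table whose RefSeq RNA record maps to the symbol. For 8 of the 9 genes 12 of the 32041 records in the table were found, and the record with the highest mean count stood for the gene. No record mapped to Dtna, so that it has no level here and appears only by its promoter window.

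The samples were 10 adult male Sprague-Dawley rats, each sequenced on its own. The 5 TBI rats received a lateral fluid percussion injury, a pressure pulse of 3.32 atm on the dura through a hole in the skull, and the 5 sham rats had the anaesthesia and the skull opening without the impact. The CA3 and dentate gyrus of the left dorsal hippocampus were dissected, and poly-A RNA was sequenced from one end over 36 bases. By the methods of the study the TBI rats were not monitored by electroencephalography, so that whether any one of them had become epileptic is not known. All p-values measure the spread between these rats.

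Glutamate released at synapses is taken up by the astrocyte transporters GLT-1 (Slc1a2) and GLAST (Slc1a3) and turned into glutamine by glutamine synthetase. Kir4.1 (Kcnj10) carries potassium that active neurons release into the astrocyte, and the connexins Cx43 (Gja1) and Cx30 (Gjb6) join astrocytes into a network through which it spreads. Aquaporin-4 (Aqp4) sits in the endfeet around blood vessels, held there by a dystrophin complex to which dystrobrevin belongs, and loss or misplacement of these proteins is a known feature of sclerotic epileptic hippocampus.

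Libraries held 23425817 to 31671838 counts. Ribosomal RNA took 26.2%, 23.8%, 26.1%, 59.0% and 58.5% of them in sham rats 1 to 5 and 12.5% to 25.5% in TBI rats, and the means differed (38.7% ± 18.3 against 19.7% ± 5.23, SD, n = 5 each, two-sided exact permutation test, p = 0.0238). Sham 4 and sham 5 therefore stand apart in composition, and 12686398 to 24735107 counts per library lay outside the ribosomal rows. Sham 3 and TBI 3 stand apart in the summed level of genes of reactive astrocytes. The summed level of 13 such genes was 1733 CPM (counts scaled to a common library size) in sham 3 and 828 to 979 CPM in the other sham rats, and it was 1051 CPM in TBI 3 and 1816 to 2524 CPM in the other TBI rats. Most of this sum was 1 gene, Gfap, at 1628 CPM in sham 3 and 980 CPM in TBI 3, so it does not show agreement across the 13 genes. Values without either pair of rats are given beside the members and the reactive genes, and since sham 3 and TBI 3 were picked from expression, values without them are not independent evidence.

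The 8 genes were detected in every library, with the lowest count at 348 reads (Aldh1l1) and the highest at 31532 reads (Glul). Levels below are CPM after TMM scaling, which makes most genes agree between libraries. They are compared between rats and not between genes, since transcript lengths were not used. By the quasi-likelihood test of edgeR none of the 8 genes was past the adjusted threshold of 0.05, and of all 22431 rows 0% were (0 rows, smallest adjusted p 0.477). At an unadjusted p under 0.05, 1 of the 8 genes (12.5%) was higher in TBI and none was lower, beside 7.89% of all rows in either direction and 4.89% higher in TBI. With 8 genes a single call sets this share, and nothing is read from it about the genes as a group. Of all rows 1097 were higher and 672 lower, a split that total count scaling turned to 3762 and 26 and total scaling outside ribosomal rows to 2798 and 104. With DESeq2 in place of edgeR 3 rows passed the adjusted threshold, none of them from the 8 genes. The groups overlapped in CPM for all 8 genes, while 0.923% of all rows had groups that did not overlap. The median log2 change of the 8 genes was 0.12, and that of all rows was -0.01. In pieces of tissue such as these, a different number of astrocytes and a different amount of RNA per astrocyte cannot be told apart.

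**Figure D1:**
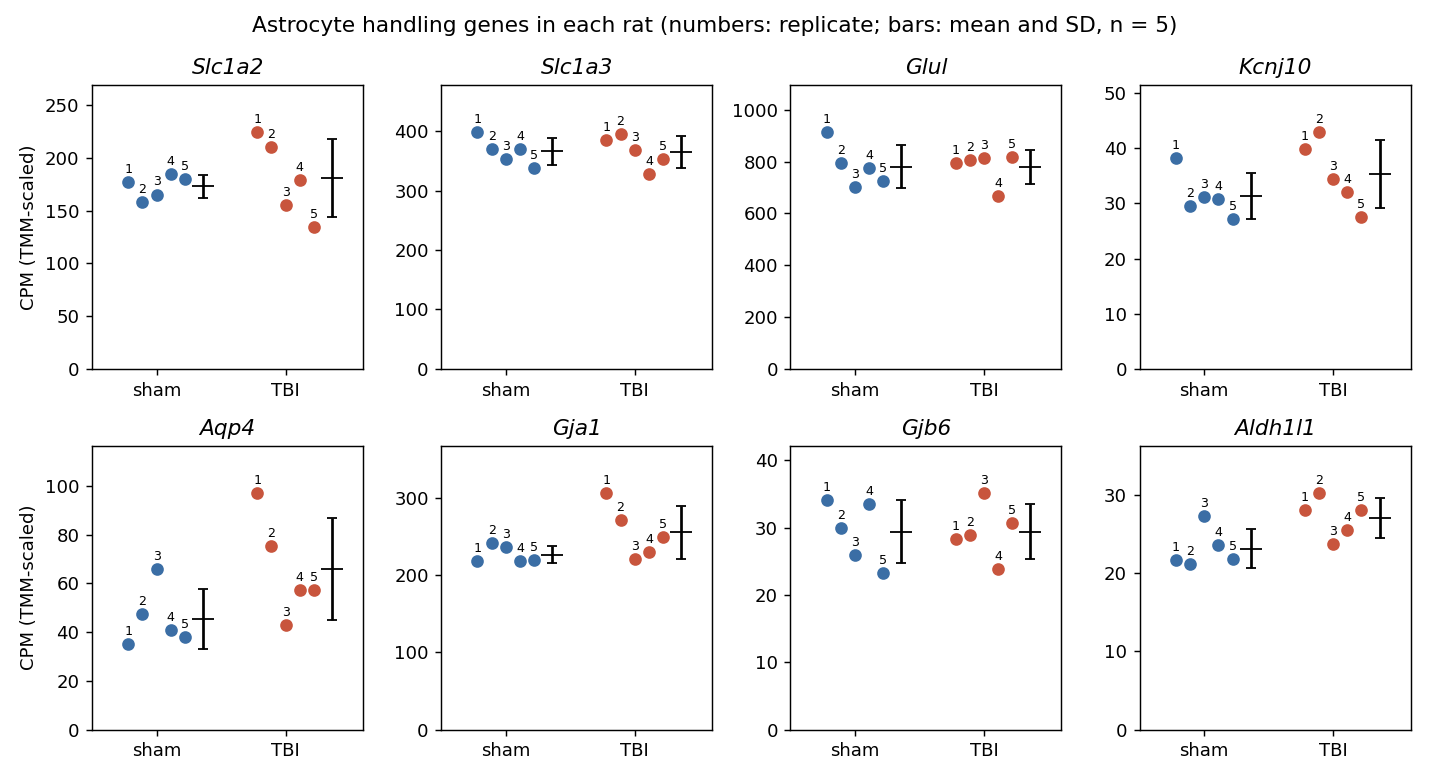
Level of each of the 8 genes in every rat, in CPM on a linear axis from 0, with the 5 sham and the 5 TBI rats as points and the group mean ± SD beside them. The groups overlap in every panel, and Aqp4 has the widest spread relative to its mean (coefficients of variation 26.9% in sham and 31.6% in TBI rats), from 35.3 to 65.8 CPM in sham rats and 43.0 to 97.1 CPM in TBI rats.

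The water channel Aqp4 had the largest fitted difference of the 8 genes. Its level was 35.3, 47.5, 65.8, 41.0 and 37.9 CPM in sham rats 1 to 5 and 97.1, 75.4, 43.0, 57.2 and 57.3 CPM in TBI rats 1 to 5. TBI 1 and TBI 2 lay above every sham rat, TBI 3 lay among the sham rats, and all 5 TBI rats lay above the sham median. The means were 45.5 ± 12.2 and 65.98 ± 20.8 CPM (SD, n = 5 each), a fitted 1.45-fold difference with a 95% interval of 0.992 to 2.11. The log2 change of 0.53 (SE 0.242, 95% interval -0.01 to 1.08) did not pass the test (adjusted p = 0.637, edgeR). Aqp4 is among the genes that the study listed as higher in this model, at an unadjusted p under 0.001 in edgeR. Its place here is therefore not independent of these samples. The unadjusted p of 0.0539 here (edgeR quasi-likelihood test) did not reach that threshold, nor did that of 0.0266 in edgeR's exact test. The methods of the study describe a negative binomial model in edgeR and do not name the quasi-likelihood test. For mRNA of this model the methods of the study give fewer control rats than the 5 used here. The source of the difference was not tested.

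The 3 other RefSeq records of Aqp4 had log2 changes of 0.50 to 0.56, with edgeR adjusted p-values of 0.589 to 0.646. These records had unadjusted p-values of 0.0316, 0.0497 and 0.0598 in edgeR, beside 0.0539 for the main record. Their counts within a rat differed from each other by 1.02 to 1.16 times, so the records share most of their reads and are 1 measurement, not 4. The result for Aqp4 depended on which rats were kept. The log2 change was 0.42 (95% interval -0.27 to 1.10) without sham 4 and sham 5, and 0.43 (-0.28 to 1.15) with the ribosomal RNA share as a covariate. It was 0.35 (-0.11 to 0.82) without TBI 1, 0.71 (0.22 to 1.19) without sham 3 and 0.65 (0.16 to 1.14) without TBI 3. Without both sham 3 and TBI 3 it was 0.83 (0.48 to 1.18), and only there, of the alternative fits run, did 1 of the 8 genes pass the adjusted threshold (adjusted p = 0.0234, edgeR).

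Neither connexin of astrocytes passed the test, and no test of a difference between Gja1 and Gjb6 was made. Gja1 was at 218, 242, 237, 218 and 219 CPM in sham rats 1 to 5 and at 307, 272, 221, 230 and 250 CPM in TBI rats 1 to 5. TBI 1, TBI 2 and TBI 5 lay above all sham rats, and the others lay among them. The means of 227 ± 11.5 and 256 ± 34.6 CPM (SD, n = 5 each) gave a log2 change of 0.17 (SE 0.0890) and a fold interval of 0.990 to 1.28, which did not pass (adjusted p = 0.667, edgeR). Without TBI 1 it was 0.10 (95% interval -0.07 to 0.27), and without TBI 3 it was 0.22 (0.03 to 0.41). Without TBI 4 it was 0.21 (0.01 to 0.41). Without sham 4 and sham 5 the log2 change of Gja1 was 0.14 (-0.09 to 0.38), and without both sham 3 and TBI 3 it was 0.24 (0.02 to 0.45).

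Gjb6 was at 34.1, 30.01, 26.0, 33.5 and 23.3 CPM in sham rats and at 28.4, 28.8, 35.1, 23.8 and 30.7 CPM in TBI rats. Both groups had a mean of 29.4 CPM, with SDs of 4.69 and 4.10, and the highest TBI rat was TBI 3. The 95% interval of the fold was 0.848 to 1.18 (adjusted p = 0.999, edgeR), so that changes of Gjb6 larger than those bounds lie outside it. The ratio of Gja1 reads to Gjb6 reads, which needs no scaling between libraries, was 6.41, 8.06, 9.12, 6.50 and 9.40 in sham rats and 10.8, 9.43, 6.28, 9.64 and 8.13 in TBI rats. Its means of 7.90 ± 1.41 and 8.86 ± 1.73 (SD, n = 5 each) differed by less than 1 SD, and the groups overlapped.

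The RefSeq promoter windows of Aqp4 and Gja1 are shown because these 2 genes varied most closely together across rats, as described below. Each window runs from 250 bases before to 50 bases after an annotated start in the GRCr8 assembly, a newer build than that of the count table, and is read 5′ to 3′ on the strand of the gene. Aqp4 has 2 annotated starts, at chr18:6798793-6799092 and chr18:6797877-6798176 on the minus strand, and the window of Gja1 is chr20:36302314-36302613 on the plus strand. Capitals mark a match to a motif.
Aqp4 start 1: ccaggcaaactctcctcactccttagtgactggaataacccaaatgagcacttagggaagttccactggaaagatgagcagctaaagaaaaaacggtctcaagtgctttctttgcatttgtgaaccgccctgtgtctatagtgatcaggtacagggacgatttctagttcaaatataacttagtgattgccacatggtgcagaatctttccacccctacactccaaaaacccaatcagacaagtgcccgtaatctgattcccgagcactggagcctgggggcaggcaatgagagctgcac
Aqp4 start 2: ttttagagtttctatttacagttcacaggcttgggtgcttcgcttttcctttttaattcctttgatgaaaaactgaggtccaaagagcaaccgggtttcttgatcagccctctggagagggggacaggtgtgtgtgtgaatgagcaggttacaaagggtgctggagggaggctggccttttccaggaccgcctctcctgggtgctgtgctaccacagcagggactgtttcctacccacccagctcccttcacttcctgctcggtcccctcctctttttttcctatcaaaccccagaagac
Gja1: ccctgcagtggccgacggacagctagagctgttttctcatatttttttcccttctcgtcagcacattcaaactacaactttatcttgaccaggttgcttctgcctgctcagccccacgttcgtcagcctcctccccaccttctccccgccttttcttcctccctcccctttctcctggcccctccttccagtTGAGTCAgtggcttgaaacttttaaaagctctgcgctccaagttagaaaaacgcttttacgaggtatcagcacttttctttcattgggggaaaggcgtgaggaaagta
Motifs of factors known from reactive glia were searched by their letters, TTCNNNGAA for STAT, and TGA and TCA with 1 base of any kind between them for AP-1, each of which reads the same on both strands and does not overlap the other. The windows of Aqp4 held none of them, and that of Gja1 held 1 AP-1 match, TGAGTCA, whose first base lay at -58 from the start. Of the 9 genes, Dtna had a STAT match in its window as well, and the others had no match. Over all 33469 rat windows in the same table, 8.87% held the STAT letters and 7.33% the AP-1 letters.

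The glutamate transporters and glutamine synthetase showed no difference past the test. Slc1a3 was at 398, 370, 353, 370 and 338 CPM in sham rats 1 to 5 and at 384, 395, 368, 327 and 353 CPM in TBI rats 1 to 5. The groups had the same mean of 366 CPM, with SDs of 22.5 and 26.8, and overlapped over most of their range. The fold interval was 0.892 to 1.12 (adjusted p = 0.999, edgeR).

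Glul was at 913, 793, 700, 774 and 726 CPM in sham rats and at 793, 807, 816, 666 and 817 CPM in TBI rats. TBI 4 lay below every other rat, and TBI 1, TBI 2, TBI 3 and TBI 5 lay within 793 to 817 CPM. The means of 781 ± 82.6 and 780 ± 64.1 CPM (SD, n = 5 each) gave a fold interval of 0.876 to 1.14 (adjusted p = 0.998, edgeR). Slc1a2 was at 177, 158, 165, 185 and 180 CPM in sham rats and at 224, 210, 155, 179 and 135 CPM in TBI rats. TBI 1 and TBI 2 lay above all sham rats and TBI 3 and TBI 5 lay below all of them, so that TBI rats spread to both sides of the sham rats. Their coefficient of variation was 20.6%, against 6.45% in sham rats. The means were 173 ± 11.2 and 181 ± 37.2 CPM (SD, n = 5 each), with a fold interval of 0.884 to 1.24 (adjusted p = 0.927, edgeR). The other record of Slc1a2 gave a log2 change of 0.07 (SE 0.107), beside 0.06 (SE 0.115) for the main one. For Slc1a3, Glul and Gjb6 the fitted log2 changes lay within 0.01 of 0, and their sign turned with the scaling of the libraries and with single rats. Without sham 4 and sham 5 the log2 changes were 0.12 for Slc1a2, -0.03 for Slc1a3, -0.04 for Glul and -0.03 for Gjb6. Without both sham 3 and TBI 3 they were 0.10, -0.02, -0.06 and -0.12 in the same order.

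Kcnj10 was at 38.3, 29.5, 31.2, 30.8 and 27.2 CPM in sham rats 1 to 5 and at 39.8, 42.9, 34.4, 32.1 and 27.6 CPM in TBI rats 1 to 5. TBI 1 and TBI 2 were the highest of all rats, sham 1 came next, and TBI 5 lay at the level of the lowest sham rat. The means were 31.4 ± 4.15 and 35.4 ± 6.11 CPM (SD, n = 5 each). The log2 change was 0.17 (SE 0.115) with a fold interval of 0.950 to 1.33 (adjusted p = 0.760, edgeR). Leaving out sham 1 or TBI 5 brought the log2 change of Kcnj10 to 0.25 in either case, with 95% intervals of 0.02 to 0.48 and 0.02 to 0.47. It was lower in other fits, at 0.09 without TBI 2 (-0.15 to 0.32), 0.10 without sham 4 and sham 5 (-0.18 to 0.39), 0.11 with the ribosomal RNA share as a covariate and 0.09 with a surrogate variable. Without both sham 3 and TBI 3 it was 0.17 (-0.12 to 0.47).

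Aldh1l1, whose enzyme acts in folate metabolism, is used as a marker of astrocytes in general. It was the 1 gene of the 8 whose main record had an unadjusted p under 0.05 in edgeR. It was at 21.7, 21.2, 27.3, 23.7 and 21.8 CPM in sham rats 1 to 5 and at 28.1, 30.3, 23.7, 25.5 and 28.0 CPM in TBI rats 1 to 5. TBI 1, TBI 2 and TBI 5 lay above all sham rats, sham 3 was the highest sham rat and TBI 3 the lowest TBI rat. The means of 23.1 ± 2.52 and 27.1 ± 2.56 CPM (SD, n = 5 each) gave a 1.17-fold difference with an interval of 1.03 to 1.34. Its log2 change of 0.23 (SE 0.0907) did not pass the adjusted threshold (adjusted p = 0.555, edgeR). The 95% interval crossed 0 without sham 4 and sham 5 (0.22, -0.02 to 0.45) and with the ribosomal RNA share as a covariate (0.20, -0.05 to 0.45). It also crossed 0 without sham 1, sham 2, sham 5 or TBI 2, where the log2 change was 0.20, 0.20, 0.21 and 0.19. It lay above 0 without sham 3 (0.30, 0.11 to 0.49) and without both sham 3 and TBI 3 (0.34, 0.15 to 0.54).

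**Figure D2:**
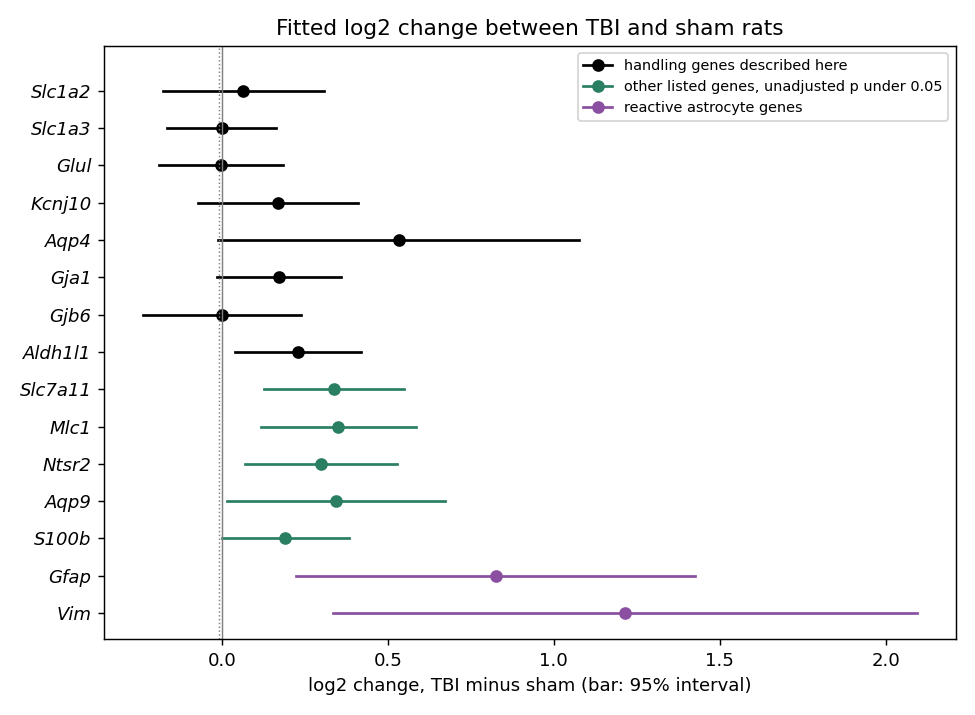
Fitted log2 change, TBI minus sham, of the 8 genes, of the other listed astrocyte genes with an unadjusted p under 0.05 and of the reactive genes Gfap and Vim; points are estimates, bars are 95% intervals and the dotted line is the median of all rows (-0.01). The intervals of 7 of the 8 genes cross 0, and that of Aldh1l1 runs from 0.04 to 0.42.

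Lists of further genes from the same processes, 60 in all, put the 8 genes in context. No record mapped to Hepacam, Dtnb, Lama2 and Sox9. The other 56 were tested, and 5 had an unadjusted p under 0.05 in edgeR, all higher in TBI. This share of 8.93% stands beside 4.89% of all rows called higher and 7.89% called in either direction. None of the 56 genes passed the adjusted threshold, and their median log2 change was 0.03. In the glutamate and glutamine list 1 of 10 genes was called, and the median was -0.06. In the potassium and ion list 1 of 9 was called, with a median of 0.06. In the list of water channels and the dystrophin complex 1 of 12 was called, with a median of 0.03. None of 7 further gap junction genes was called (median -0.03), and 2 of 18 genes of astrocyte identity were (median 0.10).

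The 5 genes called from these lists were Slc7a11, Mlc1, Ntsr2, Aqp9 and S100b. Slc7a11, the cystine and glutamate exchanger, was at 33.6 ± 3.53 CPM in sham and 42.5 ± 6.50 CPM in TBI rats (log2 change 0.34, SE 0.101). It did not pass the adjusted threshold (adjusted p = 0.483, edgeR), and its unadjusted p was under 0.05 in each of the 25 alternative fits. Mlc1, a membrane protein of astrocyte endfeet whose loss causes a leukodystrophy, was at 262 ± 35.7 and 334 ± 52.5 CPM (0.35, SE 0.111, adjusted p = 0.487, edgeR). Ntsr2, a neurotensin receptor found on astrocytes, was at 99.3 ± 15.0 and 122 ± 17.9 CPM (0.30, SE 0.109, adjusted p = 0.532, edgeR). Aqp9, a channel for water and glycerol, was at 2.62 ± 0.552 and 3.36 ± 0.499 CPM from 28 to 149 reads per library (0.34, SE 0.157, adjusted p = 0.620, edgeR). S100b, a calcium-binding protein, was at 677 ± 67.6 and 773 ± 74.1 CPM (0.19, SE 0.0909, adjusted p = 0.633, edgeR). Of the 25 alternative fits, the unadjusted call was lost in 1 for Mlc1 (the ribosomal share as covariate), 3 for Ntsr2 (that covariate, a surrogate variable, and without sham 4 and sham 5), 9 for Aqp9 and 14 for S100b. For Aqp9 these included the fits without sham 1, sham 2, sham 5, TBI 1 or TBI 2, and for S100b the same and those without sham 4 or TBI 5.

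The genes of reactive astrocytes moved further. In that list 10 of 13 genes were higher and 1 was lower at an unadjusted p under 0.05 (beside 4.89% higher and 7.89% in either direction over all rows), none passed the adjusted threshold, and the median log2 change was 0.82. The lower gene was Serpina3n, with a log2 change of -3.28 (95% interval -5.62 to -0.95, adjusted p = 0.511, edgeR). That was the lowest change of the list, and the highest was 1.21. Some of these genes, Gfap and Vim with them, were listed by the study for this model and are not independent evidence of their direction. Gfap, the main intermediate filament of astrocytes, was at 776, 910, 1628, 872 and 895 CPM in sham rats 1 to 5 and at 2308, 2191, 980, 1704 and 1820 CPM in TBI rats 1 to 5 (log2 change 0.82, SE 0.268). Sham 3 and TBI 3 lay in the range of the other group. Vim, an intermediate filament that astrocytes raise after injury, was at 39.3 ± 13.5 CPM in sham and 91.7 ± 43.2 CPM in TBI rats (1.21, SE 0.384). Their adjusted p-values in edgeR were 0.514 and 0.522. The study listed both as higher at an unadjusted p under 0.001 in edgeR. Here the unadjusted p-values were 0.0123 for Gfap and 0.0127 for Vim in edgeR's quasi-likelihood test, and 0.0020 and 0.0013 in its exact test. The methods of the study describe a negative binomial model in edgeR and do not name the quasi-likelihood test, so the p-values are not like for like. Without sham 4 and sham 5, 3 of the 13 genes were higher and none was lower, and the log2 changes were 0.71 (95% interval -0.05 to 1.47) for Gfap and 1.07 (-0.10 to 2.23) for Vim. Without both sham 3 and TBI 3 the list had 10 higher and 1 lower, 7 of them past the adjusted threshold, and the changes were 1.22 (0.97 to 1.46) for Gfap and 1.64 (1.12 to 2.16) for Vim.

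**Figure D3:**
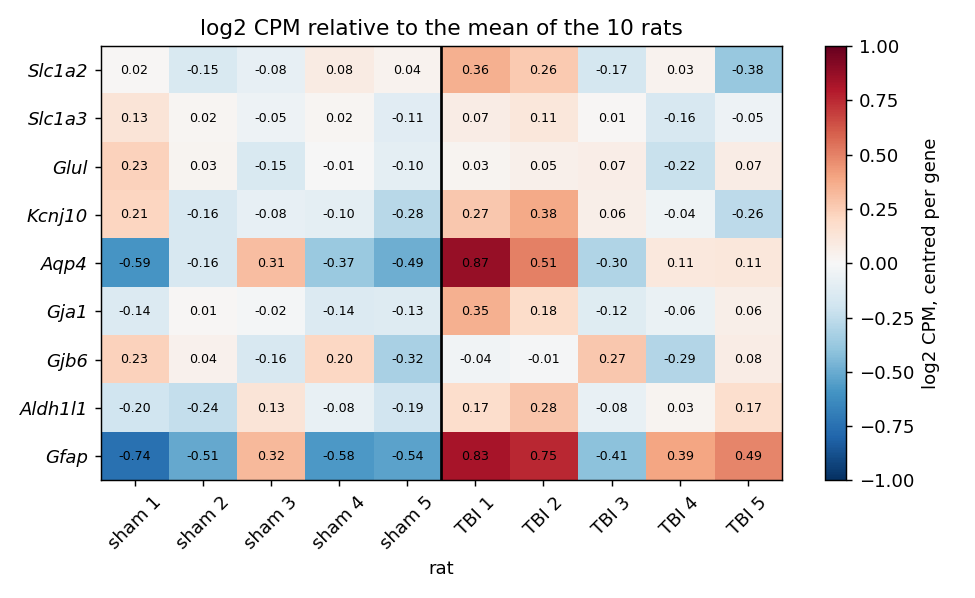
Log2 CPM of the 8 genes and, in the bottom line, of Gfap in each rat, centred on the mean of each gene over the 10 rats, with colour from below to above that mean. TBI 1 and TBI 2 have the highest mean over the 8 genes (0.26 and 0.22) and sham 5 the lowest (-0.20).

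Rats of the same group differed from each other in these genes. With each gene set to 0 at its own mean over all rats, the average log2 CPM of the 8 genes was -0.01, -0.08, -0.01, -0.05 and -0.20 in sham rats 1 to 5 and 0.26, 0.22, -0.03, -0.08 and -0.03 in TBI rats 1 to 5. TBI 1 and TBI 2 were above all others, and the other TBI rats lay among the sham rats. The genes whose log2 CPM followed this mean most closely over the 10 rats were Slc7a2 (r = 0.966), Ptpn13, Pamr1 and Lrp4 (r = 0.945 each) and Drp2 (r = 0.940), given as a description of 10 libraries.

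Among the 28 pairs of the 8 genes, the Pearson correlation across the 10 rats, after removing each group's mean, was positive in 21, with a median of 0.341. These values describe 10 libraries that share their scaling, and no test was made. The genes of one process did not always lie together. Aqp4 varied with Gja1 (r = 0.880) and Aldh1l1 (0.766), whereas Slc1a3 varied with Glul (0.825) and Kcnj10 (0.810), and Glul with the other connexin Gjb6 (0.810). Aqp4 was negatively related to Gjb6 (-0.365) and Glul (-0.272). Without sham 3 and TBI 3, the value over 8 rats was 0.943 for Aqp4 with Gja1, 0.845 for Slc1a3 with Glul and 0.810 for Glul with Gjb6, but 0.317 for Aqp4 with Aldh1l1 and 0.121 for Aqp4 with Gjb6. The last 2 values therefore rest on those rats. Without sham 4 and sham 5 these 2 pairs had values of 0.777 and -0.598, and the first 3 pairs had 0.876, 0.813 and 0.890. Sham 1 was the highest sham rat and TBI 4 the lowest TBI rat for Slc1a3, Glul and Gjb6. Values without sham 1 or TBI 4 were not computed, so whether those pairs rest on them was not tested.

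**Figure D4:**
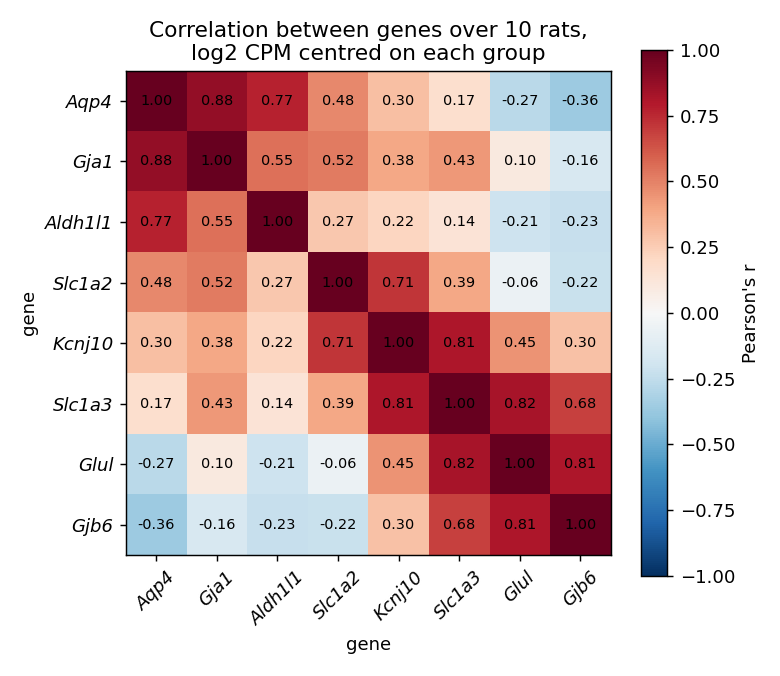
Pearson correlation of each pair of the 8 genes over the 10 rats, after subtracting the mean of each group from log2 CPM, with colour from -1 to 1. Aqp4 with Gja1 (0.880) is the highest pair and Aqp4 with Gjb6 (-0.365) the lowest.

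The same genes differed in how they followed Gfap within groups. The correlation with Gfap over the 10 rats was 0.919 for Aqp4, 0.885 for Aldh1l1 and 0.728 for Gja1, and it was 0.345 for Slc1a2, 0.140 for Kcnj10, -0.0284 for Slc1a3, -0.387 for Glul and -0.526 for Gjb6. Aqp4 was high in sham 3 and low in TBI 3, as Gfap was. Over the 8 rats left without sham 3 and TBI 3, the value was 0.909 for Aqp4 and 0.883 for Gja1, but 0.536 for Aldh1l1 and -0.00219 for Gjb6.

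Markers of other cells were measured beside these genes. The 18 further genes of astrocyte identity summed to 3266 to 3861 CPM in sham and 3453 to 4097 CPM in TBI rats. Neurons were plainly present, with a summed level of 5692 to 7062 CPM in sham and 5700.1 to 6592 CPM in TBI rats, and so were markers of CA3 (429 to 555 and 388 to 555 CPM) and of dentate granule cells (54.8 to 190.1 and 75.0 to 185 CPM). Sham 1 had the lowest dentate sum, 54.8 CPM beside 167 to 190.1 CPM in the other sham rats, and the highest neuron and CA3 sums. It was also the highest sham rat for Slc1a3, Glul, Kcnj10 and Gjb6, and the part of this composition in their values was not tested. Markers of CA1, a field outside the dissection, reached 67.8 to 146 CPM in sham and 47.7 to 500.1 CPM in TBI rats, with the highest values in TBI 2 (500.1 CPM) and TBI 1 (294 CPM), which were also the highest rats for Aqp4, Gja1, Kcnj10, Slc1a2 and Aldh1l1. All 4 genes of the CA1 list had a count in the table, with log2 changes of 0.79 to 1.53 and a median of 1.17. At an unadjusted p under 0.05 in edgeR, 1 of them was called higher. This stands beside 4.89% of all rows called higher and 7.89% called in either direction.

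The counts of called markers below stand beside 4.89% of all rows called higher and 7.89% called in either direction. Of 6 ependymal markers tested, 4 were higher in TBI at an unadjusted p under 0.05, with a sum of 14.2 to 24.8 CPM in sham and 23.9 to 37.4 CPM in TBI rats. Of 6 meningeal markers 4 were higher (8.94 to 22.2 and 16.2 to 26.1 CPM), and of 5 markers of thalamus and hypothalamus 2 were (13.2 to 22.0 and 17.2 to 26.0 CPM). Of 8 microglial markers 3 were higher (194 to 287 and 227 to 311 CPM), and of 8 markers of GABAergic neurons 3 were lower (185 to 262 and 137 to 216 CPM). Endothelial markers, of which 1 of 8 was higher, summed to 156 to 200.1 and 186 to 217 CPM. For choroid plexus 1 of 5 was higher (6.01 to 35.1 and 11.4 to 35.9 CPM), and for oligodendrocytes, neurons, CA3 and dentate granule cells none was called. No gene of these lists was under 3 counts in all libraries, and the part of these cells in the values of Aqp4, Gja1, Kcnj10, Slc1a2 and Aldh1l1 was not tested.

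**Figure D5:**
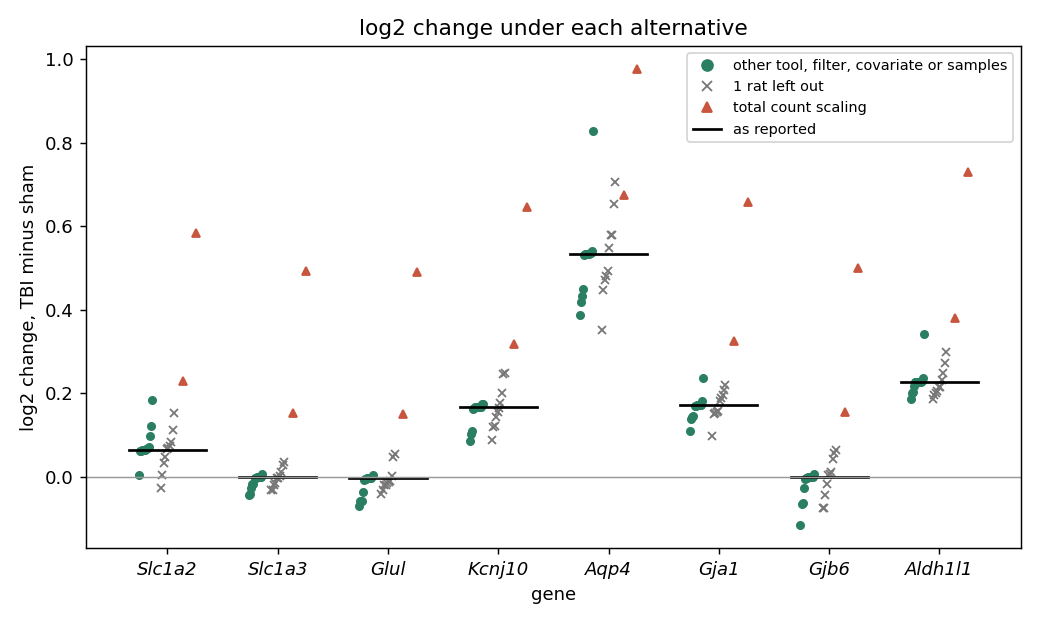
Fitted log2 change, TBI minus sham, of each of the 8 genes in the reported fit and in the 25 alternative fits, 1 point per fit. Values of Aqp4, Gja1, Kcnj10 and Aldh1l1 are above 0 in every fit, and Slc1a2 is below 0 in 1 fit. Slc1a3, Glul and Gjb6 lie on both sides of 0, with their highest values, 0.49 to 0.50, under scaling to the total count. That scaling moves the median of all rows to 0.50.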

How the data were processed

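Messenger RNA of 10 rat libraries was analysed. The values are raw read counts for RefSeq RNA records, deposited by the authors separately for each rat and not normalized. BWA and the rat build rn4 are named in the submitters' processing notes. The methods of the study describe counting over Ensembl transcripts, which differs from the RefSeq rows, and this was not settled. Of 32043 rows, 2 named no record (an empty entry and unmapped reads, the latter a median of 22.2% per library) and were left out of all steps. Symbols came from a RefSeq table of GRCr8, used for names only, which matched 54.2% of records and 57.7% of rows tested. Whether counting used strand is not given in the sources used here, so overlapping transcripts are uncertain.

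Rows with a total of at least 44 counts, the 30th percentile, were kept (22431 rows). TBI and sham rats were compared in edgeR 4.0.16 under R 4.3.3 (quasi-likelihood F test, robust estimation, TMM scaling), with Benjamini-Hochberg adjustment over all rows tested. Fold changes are TBI over sham, and intervals cover 95%. CPM values use library sizes adjusted by TMM, and correlations used log2 CPM with a prior count of 2. The script was tested on simulated data. For the ribosomal share, means were compared by exact permutation (two-sided, 252 labelled splits, smallest possible p 0.00794).

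The genes, lists and tests were chosen with earlier results of these data known. Named genes were the 9 members, the genes of the handling and astrocyte lists with an unadjusted p under 0.05 (at most 10), Gfap and Vim, and the 5 other symbols most correlated with the members' mean. Serpina3n was named as well, as the lower gene of the reactive list. Alternatives were the DESeq2 size factors, total count scaling with and without ribosomal rows, DESeq2 1.42.0, limma 3.58.1 voom with sample weights, edgeR's likelihood ratio and exact tests, other filters, summing the rows of a symbol, leaving out ribosomal rows, the ribosomal share or 1 surrogate variable (sva 3.50.0) as covariate, and leaving out rats. Promoter windows were read from a RefSeq table of GRCr8. Replicate numbers follow sample order. Figures were drawn with matplotlib 3.10.9.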

Additional observations from a re-analysis of the deposited data

Results flagged for a closer look

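In groups of 5 rats, the most extreme rat was compared with its neighbour by Dixon's criterion (gap over range above 0.71), over the levels of the 8 members, of 5 other astrocyte genes, of Gfap and of Vim and over the ribosomal RNA share. Of the 32 groups tested 2 passed, where chance flags about 1 in 20 groups, or 1.6 of 32. Glul in TBI rat 4 was 666 CPM, and the other TBI rats lay at 793 to 817 CPM. Gfap in sham rat 3 was 1628 CPM, and the other sham rats lay at 776 to 910 CPM.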

How the results depend on the processing

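None of the 8 genes passed the adjusted threshold in 24 of the 25 alternative fits, and 1 did (Aqp4) without both sham 3 and TBI 3. Rows past an adjusted p of 0.05 numbered 92 under total count scaling, 3 in DESeq2, 319 without both sham 3 and TBI 3 and 0 to 12 when 1 rat was left out. Rows with an unadjusted p under 0.05, 1769 as reported, numbered 3788 under total count scaling, 2902 under total scaling outside ribosomal rows, 992 with the ribosomal share as covariate and 1162 (without sham 2) to 2571 (without sham 3) when 1 rat was left out. Under those scalings the median over all rows was 0.50 and 0.14.

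Members with an unadjusted p under 0.05, 1 as reported, numbered 4 under total count scaling, 3 outside ribosomal rows, 2 in DESeq2, in edgeR's likelihood ratio and exact tests and with rows summed per symbol, 0 with the ribosomal share, with a surrogate variable and without the 2 ribosome-rich sham rats, and 3 without both sham 3 and TBI 3. When 1 rat was left out they numbered 0 (without sham 2, sham 5 or TBI 2) to 3 (without TBI 3). Handling genes so called, 5 as reported, numbered 16 under both total scalings, 3 in voom and with a surrogate variable, 1 with the ribosomal share, 2 without the 2 ribosome-rich sham rats, 11 without both sham 3 and TBI 3 and 3 to 9 when 1 rat was left out.

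The log2 change turned positive for Slc1a3 (0.49 under total scaling, 0.15 outside ribosomal rows, 0.0074 without a filter), Glul (0.49, 0.15 and 0.0054) and Gjb6 (0.50, 0.16 and 0.0072). Leaving out 1 rat gave -0.031 to 0.036 for Slc1a3, -0.040 to 0.056 for Glul, -0.074 to 0.065 for Gjb6 and -0.026 (without TBI 1) to 0.15 for Slc1a2. Over the 25 fits an unadjusted p under 0.05 was reached in 17 for Aldh1l1, 9 for Aqp4, 5 for Gja1 and 4 for Kcnj10. Adjusted p-values ranged from 0.0234 to 0.974 for Aqp4 and from 0.0838 to 0.974 for Aldh1l1. The causes of these changes were not tested. No paired analysis was possible because the replicate numbers follow sample order and pair no rats.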
